A study of Mus musculus with 22 samples.

Results

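The sodium pump (Na+/K+-ATPase) beta subunits Atp1b1, Atp1b2 and Atp1b3 were followed in 11 RNA libraries made from hippocampal area CA1 of mice. The 3 genes were chosen from their symbols and with earlier measured values of these libraries in view, so all of their values are given as a description, with no test. They are 3 of the 29848 genes in the deposited tables. They are known as neuronal and glial subunits; which cells their RNA came from in these libraries was not tested.

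The sodium pump moves sodium out of the cell and potassium in, at the cost of ATP, and so restores the ion gradients that each action potential and synaptic current runs down. Each pump pairs a catalytic alpha subunit with a glycosylated beta subunit, which is needed to fold the alpha subunit, carry it to the plasma membrane and set its affinity for potassium. In brain, Atp1b1 is known as the main neuronal beta subunit. Atp1b2, also called AMOG (adhesion molecule on glia), is known from astrocytes and also acts in adhesion between neurons and glia. Atp1b3 is a further, widely expressed isoform.

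All mice were C57BL/6 double transgenics of the genotype Camk2a-tTA/tetO-EGFP-L10a, in which the Camk2a promoter drives a transactivator, which in turn induces an EGFP-tagged L10a ribosomal protein. That promoter is active in excitatory neurons of the forebrain, so ribosomes of other cells are not meant to carry the tag. Dendrite and soma (cell body) regions were microdissected from animals left in the home cage or fear conditioned, and the antibody HtzGFP-19C8 against GFP was used to pull down tagged ribosomes. There were 8 immunoprecipitates (2 home cage dendrite, 2 fear conditioned dendrite, 2 home cage soma, 2 fear conditioned soma) and 3 supernatants, the RNA that the antibody left behind (number 2 of home cage dendrite and number 2 of both fear conditioned locations). Every library was run once paired-end and once single-end, giving 22 samples, and the pair of runs counted as 1 replicate. The sources used here give neither age nor number of animals per library and do not state separate animals, so the spread between libraries may be technical. No home cage soma supernatant was analysed here.

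Depth, read back from the spacing of low values, was 5.65 to 35.6 M fragments in the paired-end runs and 0.524 to 10.7 M reads in the single-end runs. Paired-end immunoprecipitates listed 3220 to 12205 genes above 0. The most complete of them, fear conditioned dendrite 1, reached the range of the supernatants (10344 to 13164), and the other 7 did not exceed 9267. In home cage soma 2, 74.0% of the summed FPKM came from 1 gene, Rpsa. Defining markers of pyramidal neurons were incomplete in the immunoprecipitates: of 10 markers, 7 were listed at 0 in home cage dendrite 1, among them Slc17a7 (the vesicular glutamate transporter) and Neurod6, while Camk2a was above 0 in all 11 libraries. For some, but not all, of the results that rest on these libraries, values with 1 of them left out are also given.

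Levels are FPKM, fragments per kilobase of transcript per M mapped, which allow genes to be compared per length. The deposited annotation (mm9) holds 1 model for each gene, all on the minus strand, and the tables give a part of the transcript that runs from the 5′ end through the coding sequence to the first 201 bases of the 3′ UTR, called the coding part here, and the rest of the 3′ UTR. Atp1b1 lies on chromosome 1 from 166367398 to 166388486, with 6 coding exons, 912 coding bases, a coding part of 1611 bases and a 3′ UTR part of 811. The end of its 3′ UTR overlaps that of Nme7 on the opposite strand, and the sources used here do not say whether counting used strand. Atp1b2 lies on chromosome 11 from 69413252 to 69419462, with 7 coding exons, 870 coding bases, a coding part of 1659 bases and a 3′ UTR part of 1300. Atp1b3 lies on chromosome 9 from 96233095 to 96264718, with 7 coding exons, 834 coding bases, a coding part of 1180 bases and a 3′ UTR part of 650. No other gene of the annotation overlaps Atp1b2 or Atp1b3.

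Atp1b1, the main neuronal beta subunit, was above 0 in the coding part of all 11 libraries in both runs. In the paired-end table home cage dendrite immunoprecipitates 1 and 2 had an FPKM of 110 and 0.995, and their fear conditioned counterparts 16.9 and 45.6. Soma immunoprecipitates had 2.14 and 0.185 after the home cage and 138 and 343 after fear conditioning. The highest library, fear conditioned soma 2, held about 16519 fragments of the gene and ranked it 7th among all genes; the lowest, home cage soma 2, held about 4.3. Both fear conditioned soma libraries lay above both home cage soma libraries, while the dendrite groups overlapped, because the 2 home cage dendrite libraries were the highest and the lowest of the 4. Atp1b1 stood at 18.5 (home cage) and 69.6 (fear conditioned) in the dendrite supernatants and at 32.3 in the soma supernatant, within the range of the immunoprecipitates. In bulk samples like these, fewer cells of a type and less RNA per cell cannot be told apart.

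The separation of the soma groups was present in each table deposited. In the single-end run, the coding part of Atp1b1 had 2.21 and 2.39 in home cage soma against 25.3 and 80.9 in fear conditioned soma. The 3′ UTR part stood at 0.974 and 0 against 39.2 and 41.8 in the paired-end run. In the single-end run that part stood at 0.642 and 0.346 against 7.58 and 70.3. Neither fear conditioned soma library came as low as a home cage one in any of the 4, which are parts and runs of the same libraries. The share of all genes separated in this way was not counted, so nothing is read from the separation. Depth and the makeup of the libraries moved the same way: the home cage soma libraries had 13.4 and 14.3 M fragments and 5006 and 3220 genes above 0, against 19.2 and 29.9 M fragments and 9267 and 9211 genes in fear conditioned soma. The summed FPKM of the 10 pyramidal neuron markers was 18.6 and 13.3 against 169 and 604. The part of either in the Atp1b1 levels was not tested.

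Atp1b2, the glial beta subunit, had lower levels. Its paired-end coding part had an FPKM of 0 and 9.19 in home cage dendrite immunoprecipitates 1 and 2, and 5.87 and 6.00 in their fear conditioned counterparts. Soma immunoprecipitates had 0.645 and 0.0446 after the home cage and 0.820 and 0.817 after fear conditioning. Of the 4 dendrite libraries, 3 lay above every soma library and the fourth was listed at 0, so the groups overlapped. In the dendrite supernatants Atp1b2 stood at 5.82 (home cage) and 8.60 (fear conditioned), and in the only soma supernatant at 1.35.

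The single-end run gave Atp1b2 another order. Dendrite immunoprecipitates had 0 and 29.2 after the home cage and 5.84 and 0.682 after fear conditioning. Soma immunoprecipitates had 2.41 and 0 after the home cage and 27.4 and 0.759 after fear conditioning. The highest soma library, fear conditioned soma 1, thus came near the highest dendrite library in this run but stood at 0.820 in the paired-end run. The single-end value of 29.2 in home cage dendrite 2 rests on about 25.4 reads in the shallowest run (0.524 M reads). In both runs the dendrite supernatants (single-end 20.0 and 41.7) lay above the soma supernatant (3.24).

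Astrocyte markers were set beside Atp1b2 in the paired-end run. The summed FPKM of 14 markers was 278 to 527 in the 4 dendrite immunoprecipitates and 2.12 to 99.6 in the 4 soma immunoprecipitates. It was 384 and 480 in the dendrite supernatants and 26.4 in the soma supernatant. In the single-end run it was 181 to 309 in dendrite and 2.25 to 130 in soma immunoprecipitates. That run gave 833 and 894 in the dendrite supernatants and 64.4 in the soma supernatant. In the paired-end run all 14 were above 0 in fear conditioned dendrite immunoprecipitate 1. There 6 were listed at 0 in each home cage soma library, among them Aqp4, the astrocyte water channel, and Gja1, the gap junction protein. In home cage dendrite 1, where Atp1b2 was listed at 0, Aqp4, Gja1, Aldh1l1 and S100b were at 0 as well, while Glul (glutamine synthetase) stood at 60.8 and Slc1a2 (the main glial glutamate transporter) at 31.0. The part of astrocyte RNA in the Atp1b2 levels was not tested. Over the 10 markers tested between dendrite and soma immunoprecipitates the median log2 difference was 2.75, against -0.30 over all genes, and 0 passed the test. Of these, at least S100b, Gfap, Apoe and Ndrg2 reached the required mean of 1 scaled FPKM only through dendrite libraries, so that minimum set their direction. It thereby bears on the median as well, and nothing is read from that median. Aqp4, Gja1, Aldh1l1 and Mlc1 fell below it.

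Atp1b3, the widely expressed isoform, exceeded an FPKM of 1 in only 1 immunoprecipitate of the paired-end coding part, and also in supernatants. Its paired-end coding part had an FPKM of 80.2 and 0.696 in home cage dendrite 1 and 2, and 0.580 and 0 in their fear conditioned counterparts. Both home cage soma libraries were listed at 0, and the fear conditioned ones had 0.947 and 0. The dendrite supernatants had 4.03 (home cage) and 0.186 (fear conditioned), and the soma supernatant had 1.39. The high library held about 534.4 fragments of the gene, and it was also the shallowest paired-end run (5.65 M fragments). Its single-end run gave 3.35 from about 9.0 reads, and its 3′ UTR part was listed at 0 in the paired-end run. In the single-end run the other 7 immunoprecipitates were listed at 0, and the supernatants stood at 4.87, 3.01 and 0.134 in the same order as above.

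**Figure D1:**
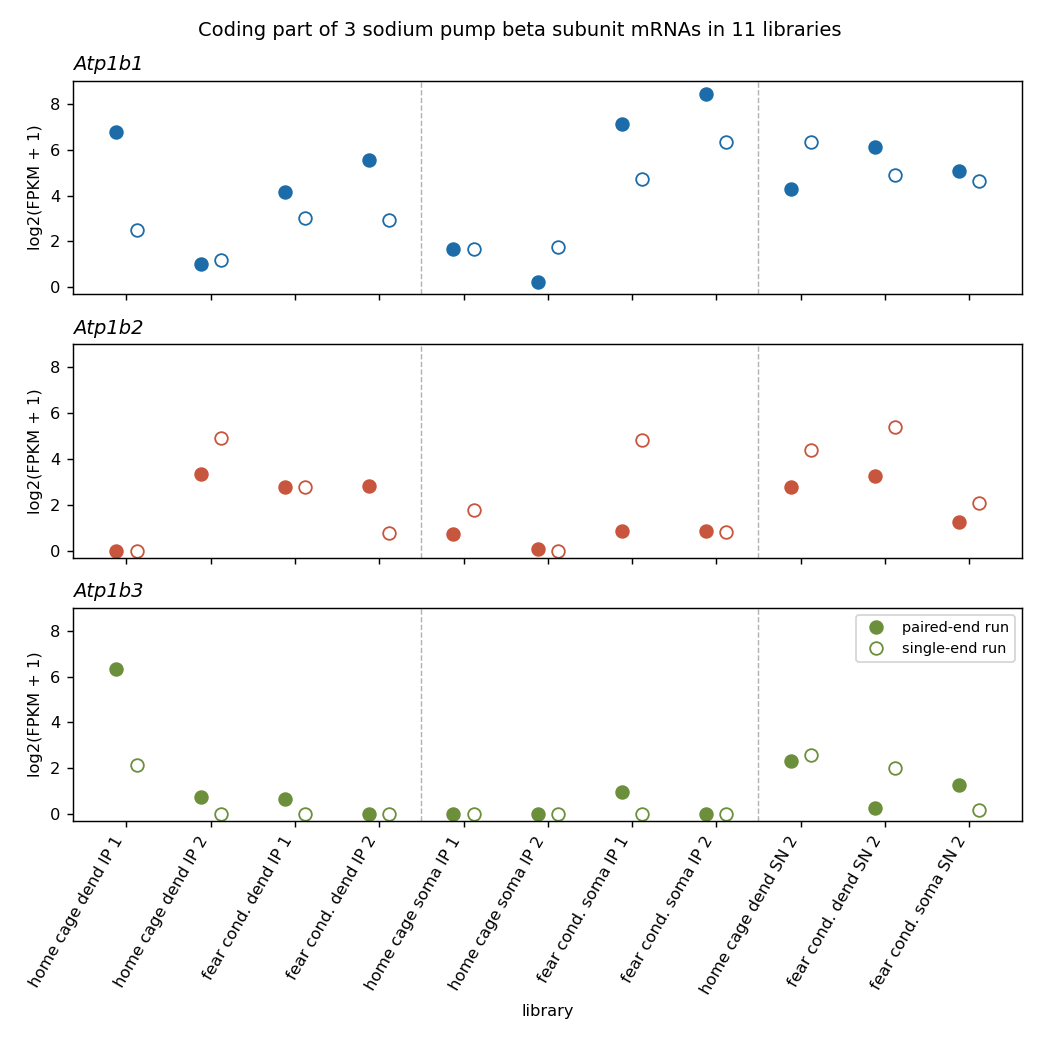
FPKM of the coding part of each gene on a log2(FPKM + 1) axis in each library, with filled points for the paired-end and open points for the single-end run; dashed lines part dendrite immunoprecipitates (IP), soma immunoprecipitates and supernatants (SN). Atp1b1 spans 0.185 to 343 in the paired-end run, and Atp1b3 exceeds 5 in home cage dendrite 1 only.

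The plot of levels by library also shows how far the runs of 1 library parted. The ratio of the paired-end to the single-end FPKM of Atp1b1 ranged from 0.0775 in home cage soma 2 to 23.6 in home cage dendrite 1. For Atp1b2 it ranged from 0.0299 in fear conditioned soma 1 to 8.81 in fear conditioned dendrite 2. Each gene thus had libraries in which 1 run was far above the other and libraries in which it was far below.

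Within a library, levels need no scaling between libraries, so the balance of the 3 genes was read as shares of their summed FPKM. In the paired-end coding part Atp1b1 held over 50% of it in 10 of 11 libraries. The count was 7 of 11 in the single-end coding part, 5 of 11 in the paired-end 3′ UTR part and 3 of 11 in the single-end 3′ UTR part. In the dendrite immunoprecipitates the direction turned with the part: the median log2 ratio of Atp1b1 to Atp1b2 was 2.06 in the coding part and -2.07 in the 3′ UTR part. The share of Atp1b1 in the paired-end coding part was 98.7 and 99.8% in fear conditioned soma and 76.9 and 80.6% in home cage soma. In dendrite it was 57.8 and 9.15% after the home cage and 72.4 and 88.4% after fear conditioning. The exception was home cage dendrite 2, where Atp1b2 held 84.5%. Atp1b1 was 168 and 420 times Atp1b2 in fear conditioned soma 1 and 2, 3.32 and 4.14 times in home cage soma, and 2.88 and 7.60 times in fear conditioned dendrite. The home cage soma ratios rest on few fragments (about 46.3 and 4.3 of Atp1b1, 14.4 and 1.1 of Atp1b2).

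In the single-end run the shares of Atp1b1 in the soma immunoprecipitates were 47.9, 100, 47.9 and 99.1% in home cage 1 and 2 and fear conditioned 1 and 2. The order of Atp1b1 over Atp1b2 in fear conditioned soma 1 was therefore lost in that run (0.920 times). The dendrite supernatants had Atp1b1 shares of 65.2 (home cage) and 88.8% (fear conditioned) in the paired-end run and 76.1 and 39.1% in the single-end run, and the soma supernatant 92.2 and 87.7%. By paired-end mean, the order of the genes in dendrite immunoprecipitates was Atp1b1, Atp1b3, Atp1b2. By median it was Atp1b1 (31.3), Atp1b2 (5.94) and Atp1b3 (0.638), because the mean of Atp1b3 rests on home cage dendrite 1. In soma immunoprecipitates the medians were 70.1, 0.731 and 0 in the same order. Ranges of all 3 genes overlapped in dendrite; in soma those of Atp1b2 and Atp1b3 overlapped, and Atp1b1 overlapped both through the home cage libraries.

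**Figure D2:**
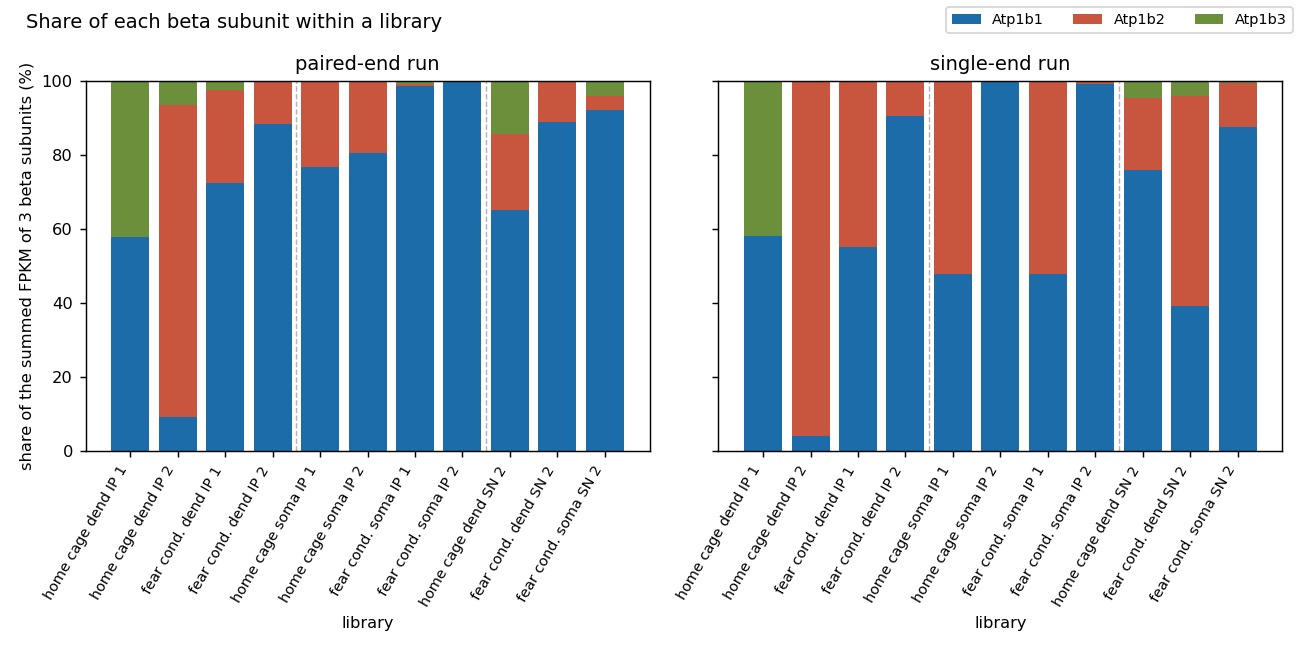
Bars give the share (%) of Atp1b1, Atp1b2 and Atp1b3 in their summed FPKM within each library, for the coding part in the paired-end and single-end runs. Atp1b1 holds 98.7 and 99.8% of the paired-end sum in the fear conditioned soma immunoprecipitates and 9.15% in home cage dendrite 2.

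The first comparison asks which tagged-ribosome mRNAs differ between dendrite and soma. FPKM were scaled between libraries and compared as log2(scaled FPKM + 1), with limma over all genes whose mean reached 1 scaled FPKM. All 3 beta subunits met that minimum, Atp1b3 only through home cage dendrite 1. Dendrite minus soma was -0.51 (SE 1.36) for Atp1b1, 1.12 (SE 0.87) for Atp1b2 and 1.61 (SE 1.07) for Atp1b3, each with n = 4 libraries on either side; the median over all genes was -0.30. The scaled FPKM of Atp1b1 averaged 33.5 ± 46.2 (SD, n = 4) over dendrite libraries and 77.1 ± 95.0 (SD, n = 4) over soma libraries. Over all 2928 genes, percent called at an adjusted p under 0.05 (limma, Benjamini-Hochberg) was 0, and 139 genes had an unadjusted p under 0.05. Without home cage dendrite 1 the differences were -1.90, 1.97 and 0.24, and without home cage dendrite 2 they were 1.00, 0.38 and 3.01, so 1 library sets the direction for Atp1b1 and the size for the others.

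Fear conditioning in the dendrite immunoprecipitates was compared over 2 libraries a side. Fear conditioned minus home cage was 0.10 (SE 1.92) for Atp1b1, 0.40 (SE 1.23) for Atp1b2 and -3.28 (SE 1.51) for Atp1b3, beside a median of 0.08 over all genes. For Atp1b1 and Atp1b2 both fear conditioned libraries lay between the 2 home cage libraries, and for Atp1b3 both lay below them. That order of Atp1b3 rests on an FPKM of 0.696 in home cage dendrite 2 against 0.580 in fear conditioned dendrite 1. Each value came from about 14.5 fragments. The single-end coding part did not separate the groups, because home cage dendrite 1 alone among these libraries exceeded 0. How many of all genes were ordered like Atp1b3 was not counted, so nothing is read from its order. Without home cage dendrite 1 the differences were 3.01, -1.20 and -0.53, and without home cage dendrite 2 they were -2.76, 1.99 and -6.08. Over all genes, percent called was 0, and 96 genes had an unadjusted p under 0.05.

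In the soma immunoprecipitates, fear conditioned minus home cage was 5.70 (SE 1.92) for Atp1b1, which was more than in 99.9% of the 2928 genes tested. Scaled FPKM of Atp1b1 was 104 and 199.9 in fear conditioned soma 1 and 2 and 3.59 and 0.694 in home cage soma 1 and 2. The groups thus did not overlap, but the share of all genes tested without overlap was not counted, so nothing is read from it. Percent called was 0, with 217 genes at an unadjusted p under 0.05. The difference was 5.06 without home cage soma 2, the library in which Rpsa dominates. Over 14 alternatives it ranged from 2.13 in the single-end table to 6.82 with FPKM as deposited. Because the soma groups did not overlap, leaving out a library could not turn its sign. Since values of this contrast were known when the gene was chosen, nothing is read from its size or sign. Atp1b2 had -0.01 (SE 1.23) and Atp1b3 0.39 (SE 1.51), beside a median of 0.43 over all genes. Leaving out 1 soma library changed how many genes in all passed. Such fits leave a lone library in a group, assumed to vary like the others, so their counts are not given.

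The comparisons with supernatants ask what the ribosome pull-down holds relative to the unbound RNA. They share libraries with those above and were fitted over all 11 libraries with behaviour as a covariate, so the fitted differences need not equal differences of the group means and can have the opposite sign. In dendrite, immunoprecipitate minus supernatant was -0.95 (SE 1.75) for Atp1b1, -0.92 (SE 0.99) for Atp1b2 and 0.74 (SE 1.32) for Atp1b3. The median over all genes was -0.11. Over all genes, 2 of 2938 were called (percent called 0.0681), Gm3168 and AK193394, both lower in the immunoprecipitates and named after their values were seen. Without home cage dendrite immunoprecipitate 1 the difference of Atp1b3 was -0.69, and without home cage dendrite immunoprecipitate 2 that of Atp1b1 was -0.17.

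The soma comparison rests on 1 supernatant, which is assumed to vary like the other libraries. Immunoprecipitate minus supernatant was 0.36 (SE 2.34) for Atp1b1, -0.57 (SE 1.33) for Atp1b2 and -1.95 (SE 1.77) for Atp1b3, beside a median of 0.18. For Atp1b1 the group means of log2(scaled FPKM + 1) had the opposite order, 4.31 in the immunoprecipitates and 5.21 in the supernatant. Over all genes percent called was 0 with 28 genes at an unadjusted p under 0.05. Within fear conditioned soma alone, Atp1b1 stood at 138 and 343 in the immunoprecipitates and 32.3 in the supernatant, whereas Atp1b2 stood at 0.820 and 0.817 against 1.35. Dendrite minus soma among the supernatants was 0.86 (SE 2.55) for Atp1b1, 1.44 (SE 1.44) for Atp1b2 and -1.03 (SE 1.93) for Atp1b3. Here too the group means of Atp1b1 had the opposite order, 4.81 in dendrite and 5.21 in soma. The comparison had percent called at 0 and 31 genes at an unadjusted p under 0.05.

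**Figure D3:**
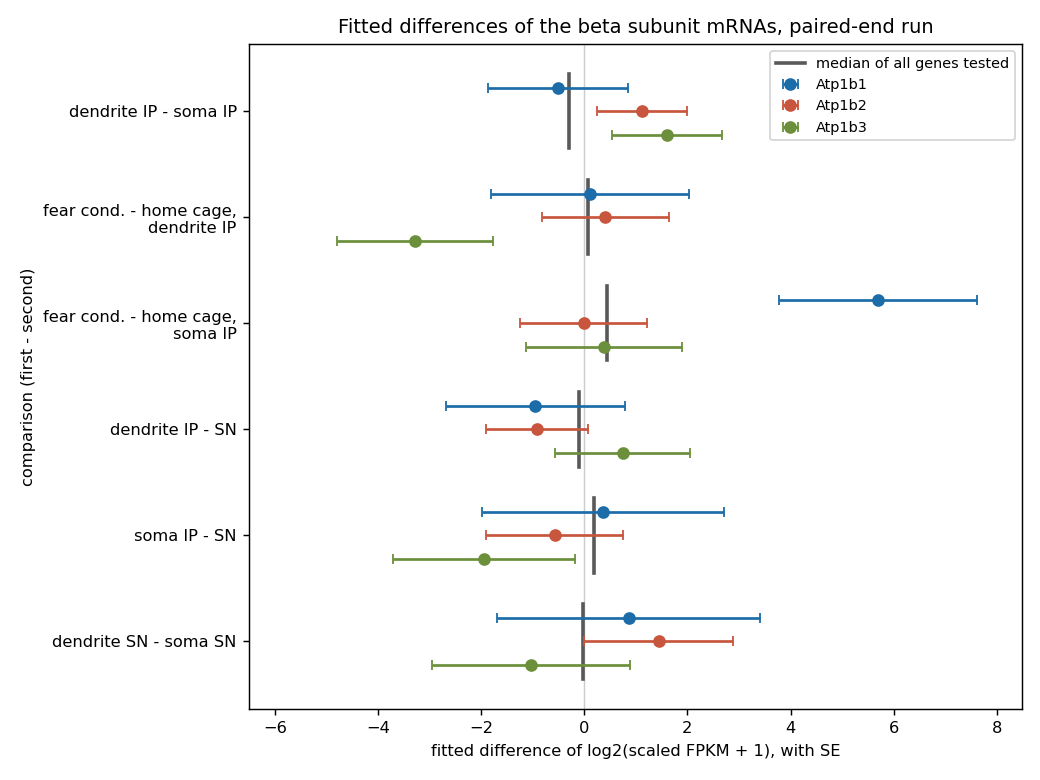
Points give the fitted difference of log2(scaled FPKM + 1), first group minus second, for each gene in 6 comparisons of the paired-end coding part; bars give 1 SE and the dark grey vertical lines the median of all genes tested. Atp1b1 in fear conditioned against home cage soma immunoprecipitates, at 5.70, lies farthest from the median.

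The 3′ UTR part of Atp1b2 had a higher FPKM than its coding part in 10 of 11 paired-end libraries and in 8 of 11 single-end libraries. Paired-end dendrite immunoprecipitates had 4.79 and 25.7 after the home cage and 32.3 and 4.20 after fear conditioning. Soma immunoprecipitates had 0.754 and 0.748 after the home cage and 6.57 and 13.8 after fear conditioning. The dendrite supernatants held 46.2 and 59.1 and the soma supernatant 19.4, above all immunoprecipitates of their location. In the 3 supernatants that was 7.94, 6.88 and 14.4 times the coding part, against a median of 1.33, 1.28 and 1.64 over genes with both parts above an FPKM of 0.1. The 3′ UTR part, unlike the coding part, was above 0 in all 11 libraries in both runs, home cage dendrite 1 included.

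For Atp1b1, the 3′ UTR part exceeded the coding part in 1 of 11 libraries, the fear conditioned soma supernatant, and in the same 1 of 11 in the single-end run. The paired-end ratio there was 3.20, against 0.284 and 0.122 in fear conditioned soma immunoprecipitates 1 and 2. In home cage dendrite 1 the 3′ UTR part of Atp1b1 stood at 0.209 beside a coding part of 110, a ratio of 0.00191. In that library Atp1b3 likewise had a 3′ UTR part of 0 beside a coding part of 80.2. Across genes with both parts above an FPKM of 0.1 (290 to 5022 genes by paired-end library), 45.9 to 64.3% had the higher value in the 3′ UTR part. The counts for Atp1b1 and Atp1b2 also take in libraries with a part listed at 0, which this share leaves out.

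**Figure D4:**
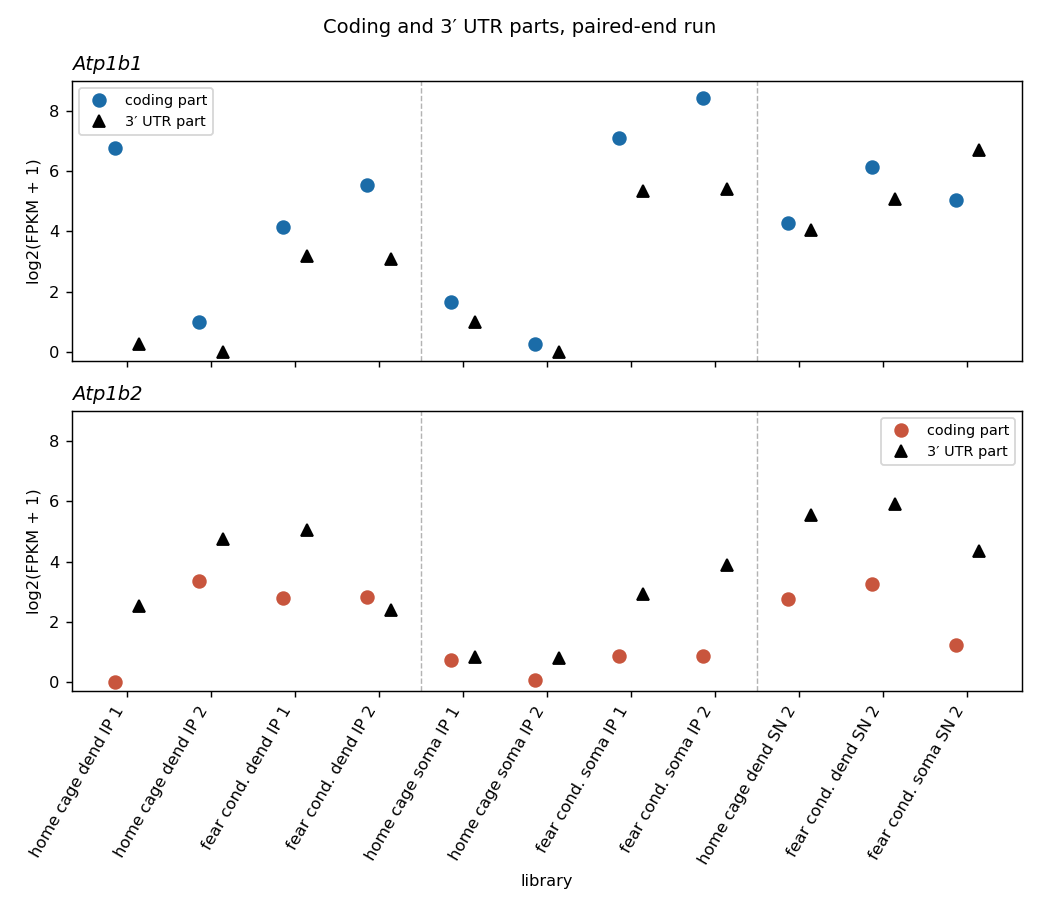
Paired-end FPKM of the coding part (circles) and the 3′ UTR part (triangles) on a log2(FPKM + 1) axis for Atp1b1 and Atp1b2 in each library. Triangles lie above circles for Atp1b2 in 10 of 11 libraries and for Atp1b1 in 1 of 11.

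Atp4a, the gastric proton pump, reached at most 0.0277 in the paired-end run. The beta subunits Atp1b4 and Atp4b were listed at 0 in all libraries.

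The wider lists of ion transport genes were chosen with these data known. Of 34 symbols, all with a row, 10 were tested among the immunoprecipitates and 11 with the supernatants; 0 passed in any of the 6 comparisons. Dendrite minus soma was negative for 9 of 10, with a median of -1.02 beside -0.30 over all genes. Fear conditioned minus home cage in soma was positive for 9 of 10, with a median of 1.07 beside 0.43. The medians over all genes had the same signs, and the share of all genes with either sign was not counted, so nothing is read from these counts. FXYD proteins are small regulators of the pump, and 0 of 7 reached the expression minimum. In the paired-end run Fxyd7, a brain regulator, stood at 7.35 in the fear conditioned dendrite supernatant and at most 0.514 elsewhere. The single-end run listed Fxyd7 at 0 in that library and gave it 2.28 in the soma supernatant. Fxyd1 (phospholemman) stood in the paired-end run at 1.895 and 4.397 in the dendrite supernatants and at 0.932 in 1 immunoprecipitate. NKAIN proteins, which bind the beta subunit Atp1b1, gave 0 of 4 tested, with Nkain1 the highest at up to 5.002 in the paired-end and 8.58 in the single-end run, both in the home cage dendrite supernatant.

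Among the calcium pumps of the paired-end run, Atp2b1, a plasma membrane pump, was also higher in both fear conditioned soma libraries than in both home cage ones, without passing the test. How many of all genes were ordered in this way was not counted. Home cage soma had 4.798 and 0.169 and fear conditioned soma 29.0 and 61.0, a fitted difference of 2.91 (adjusted p = 0.568, limma). Its dendrite values were 0.310, 7.48, 2.34 and 0.0707. Slc8a1, a sodium-calcium exchanger that runs on the gradient the pump makes, stood at 1.81 and 0.0350 against 18.4 and 19.2 in soma (2.66, adjusted p = 0.568, limma) and at up to 72.1 in home cage dendrite 2.

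Across all 11 paired-end libraries, Pearson's r of log2(scaled FPKM + 1) was -0.33 between Atp1b1 and Atp1b2, 0.37 between Atp1b1 and Atp1b3 and -0.35 between Atp1b2 and Atp1b3, given as a description over libraries that differ in depth. Of 2681 genes above 0 in at least 6 libraries, those most like Atp1b1 were Hnrnpab (r = 0.91), Spna2 (0.84) and Tbpl1 (0.84). Those most like Atp1b2 were Cacnb3 (0.92), Baalc (0.92) and Ddah1 (0.91). Those most like Atp1b3 included Ndufs1 and Gpank1 (each 0.97), which shared its high value in home cage dendrite 1, at 18.1 and 24.7. In the single-end run the same pairs had r of 0.03, 0.33 and -0.00298 for Atp1b1, 0.54, 0.32 and 0.56 for Atp1b2 and 0.32 and 0.37 for Atp1b3, each lower than in the paired-end run.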

How the data were processed

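The 11 CA1 libraries were made with a TruSeq DNA kit after amplification of RNA (Nugen Ovation RNA-Seq System V2) and digestion of single strands, per the labels' protocols; no molecular identifiers are named. CASAVA 1.9, STAR 2.1.1d, Cufflinks 2.0.2 and mm9 stand in the submitters' processing notes, with no order or settings. The authors deposited FPKM values per library and transcript part in a paired-end and a single-end table, per the file headers, and the sources used here record no scaling between libraries. Coordinates are 1-based, from the deposited mm9 annotation.

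Fragments were estimated from the spacing of low FPKM (89.9 to 97.4% of low values lay within 0.15 of 1, 2 or 3 reads); FPKM hold no counts, so no counting interval is given, and a value of 0 is only listed at 0. Scaling factors were median ratios of each paired-end library to the genes' geometric means, over genes above 0 in all 8 immunoprecipitates (870) or all 11 libraries (765). limma 3.58.1 in R 4.3.3 was fitted to log2(scaled FPKM + 1) of the coding part over genes with a mean of at least 1, with trended moderation, two-sided, with a threshold of 0.05 on p adjusted by Benjamini and Hochberg over every gene tested. The 8 immunoprecipitates were fitted in 4 groups, and all 11 libraries in 4 groups (location by fraction), behaviour being a covariate. Low genes have their change understated on this scale. Alternatives were other scalings, pseudocounts of 0.1 and 5, other expression minimums, the single-end table, the 3′ UTR part, robust moderation, a replicate block and leaving out each library.

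The members and gene lists were chosen with earlier results of these data known. Members were always named, and of each list at most the 4 genes with the highest mean scaled FPKM, plus the 3 genes most like each member by Pearson's r. Defining markers are named where they stand beside a result. Some genes that this rule names are not reported here. The cell type lists for oligodendrocytes, microglia, interneurons, vessels and choroid plexus were read as well: in paired-end dendrite immunoprecipitates their summed FPKM was 5.52 to 134, 2.25 to 13.2, 0.327 to 15.5, 0 to 9.36 and 0 to 212, and in soma immunoprecipitates 0.888 to 93.7, 0.0353 to 5.26, 0 to 12.1, 0 to 0.346 and 0.0655 to 8.43.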

Additional observations from a re-analysis of the deposited data

Results flagged for a closer look

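Among 4 libraries, a value was singled out where its gap to the next exceeded 0.829 of the group's range; 22 sets of immunoprecipitate values were examined and 7 stood out. Chance flags about 1 in 20 sets of independent, normally spread values, and these sets share libraries and in 3 cases have every other library at 0, so the count is not set against that rate. Of these, 5 belong to Atp1b3. In the paired-end run its coding part reached 80.2 (home cage dendrite 1) and 0.947 (fear conditioned soma 1), and its 3′ UTR part was 1.46 in fear conditioned dendrite 1 and 2.18 in fear conditioned soma 2, each far from the other libraries of that location. In the single-end run its coding part was 3.35 in home cage dendrite 1, with the other 3 dendrite libraries listed at 0. The single-end coding part of Atp1b2 was 27.4 in fear conditioned soma 1, with 2.41 the next highest. The single-end 3′ UTR part of Atp1b1 was 70.3 in fear conditioned soma 2, with 7.58 the next highest.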

How the results depend on the processing

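Over 17 other settings, 273 fitted differences of the 3 genes were recomputed. Of these, 21 moved by more than the residual SD and 31 changed sign or became 0. The cause of these moves was not tested.

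Counts of genes called over the whole table were small under most settings. The number of genes tested differed between settings and was larger with no expression minimum, so these counts are not shares and do not compare directly. With FPKM as deposited, 1 gene passed between dendrite and soma immunoprecipitates and 1 between fear conditioned and home cage soma. The single-end table gave 1 for dendrite against soma immunoprecipitates, 10 for immunoprecipitate against supernatant in dendrite, 10 in soma and 6 for dendrite against soma supernatant. Against supernatants, a pseudocount of 0.1 gave 1 call in dendrite and 1 in soma, a pseudocount of 5 gave 1 in dendrite, a minimum of 5 gave 1 and 1, and the 3′ UTR part 0 in dendrite and 1 in soma. With no expression minimum the 3 supernatant comparisons gave 376, 935 and 924. The replicate block gave 1 in place of 2 for dendrite immunoprecipitate against supernatant and changed no other count; same-numbered libraries did not deviate together (r of -0.00098, 0.0562, -0.0168 and -0.00276), so the numbers were not taken as pairs. Leaving out single libraries gave 0 to 135 calls for fear conditioning in soma and 0 to 2 for dendrite immunoprecipitate against supernatant.

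For fear conditioning in dendrite, leaving out single libraries gave -2.76 to 3.01 for Atp1b1, -1.20 to 1.99 for Atp1b2 and -6.08 to -0.53 for Atp1b3. There Atp1b2 had 1.76 with a pseudocount of 0.1 and -0.80 in the single-end table, and Atp1b3 -1.22 in the single-end table and 0.28 in the 3′ UTR part. For fear conditioning in soma, the single-end table gave 2.13 for Atp1b1 and 1.33 for Atp1b2, and the 3′ UTR part 3.45 for Atp1b1. Immunoprecipitate minus supernatant in dendrite was -2.24 for Atp1b2 in the single-end table and -1.30 for Atp1b3 in the 3′ UTR part. In soma it was -4.45 for Atp1b3 with a pseudocount of 0.1, and in the 3′ UTR part -2.33, -1.57 and 0.055 for Atp1b1, Atp1b2 and Atp1b3. Dendrite minus soma supernatant was 1.17 (single-end) and 1.33 (3′ UTR part) for Atp1b3. The median log2 ratio of Atp1b1 to Atp1b2 in dendrite immunoprecipitates was 2.06 in the coding part and -2.07 in the 3′ UTR part. Scaling by the upper quartile was not run to a value, because that quartile is 0 in some libraries. Precision is limited by 2 immunoprecipitates a group, by the single soma supernatant and, for the home cage soma level of Atp1b2, by about 14.4 and 1.1 fragments.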
